A study of Mus musculus with 18 samples.

Results

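Microglia sorted from the retina of rd1 mice were compared with the other sorted cells of the same kind of retina, over 9 of the 18 libraries of the series. The members were chosen by sample title, as every library labelled GFP: 7 libraries of microglia (replicates 2 to 8) and 2 of non-microglia (replicates 1 and 2). All came from rd1 mice on the FVB background at postnatal day 30, and both fractions thus share the Pde6b mutation of that strain. All eyes had received AAV8-GFP, a vector for green fluorescent protein, under the retina, which in this series is the control for a vector carrying TGFB1. Retinas were dissociated with papain and the cells were sorted after antibody staining. PolyA RNA was turned into libraries by a variant of Smart-Seq2, which reads whole transcripts and carries no molecular identifiers. The labels name neither the antibodies nor the promoter of the vector, and do not say whether a library comes from 1 animal, a pool, or an animal shared with another library. The p-values therefore rest on the variation among these 9 libraries, part of which may be technical. The comparison asks which genes mark the microglia of a degenerated retina, and which cell type genes are found in the other sorted cells.

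Microglia are the resident macrophages of the nervous tissue. They depend on signals through the receptor encoded by Csf1r, keep their identity under transforming growth factor beta, and in a retina that loses photoreceptors they take up debris of dying cells. In rd1 mice the rods lack a working phosphodiesterase and die first, and the cones follow. Mueller glia, the radial support cells that span the retina, and the inner neurons (bipolar, amacrine, horizontal and ganglion cells) outlast the rods, and Mueller glia respond to the loss with gliosis.

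Levels are given in CPM, counts per 1000000 counted reads after TMM scaling, as mean ± SD over the 7 microglia libraries and as the value in each of the 2 non-microglia libraries, in the order of their replicate numbers. A positive log2 fold change is higher in microglia. Its SE was derived from the test, as the absolute log2 fold change divided by the square root of the F statistic. Calls rest on edgeR's quasi-likelihood test over all genes, with p adjusted by Benjamini-Hochberg and a threshold of 0.05. Where both non-microglia libraries had 0 counts, the fold was set against a floor of 3 counts per library and is a lower bound. Where they had 1 to 3 counts together the ratio carries a 95% exact counting interval, which covers counting error only. The microglia libraries held 1766307 to 3064027 counts and the non-microglia libraries 2604930 and 2318212, with a count in 19947 to 26333 genes. Log2 CPM of microglia libraries correlated with each other at r = 0.923 to 0.969 across genes, the non-microglia pair at 0.971, and the 2 fractions at no more than 0.459. The first principal component (84.1% of the variance) separated the fractions, and the second (4.28%) set microglia replicate 2 apart. Xist had 1291 to 1952 counts in microglia replicates 2, 7 and 8, where Y chromosome genes had 0. In the other 6 libraries, both non-microglia libraries included, Xist had 0 to 2 counts and Y chromosome genes 294 to 644.

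The fractions matched their labels by the 4 markers fixed for them. Csf1r, the receptor for the growth factors CSF1 and IL-34 (ENSMUSG00000024621, GRCm38 chromosome 18, 61100598 to 61132149), stood at 10131, 11369.6, 11334, 11211, 11471, 10985 and 10924 CPM in microglia replicates 2 to 8 and at 8.82 and 8.82 CPM in non-microglia. Every microglia library lay far above both non-microglia libraries, and the fold change had the smallest p of all genes (log2 fold change 10.28 ± 0.15 SE, with edgeR adjusted p = 2.52e-16). Tmem119, a membrane protein gene that marks microglia (ENSMUSG00000054675, chromosome 5, 113793729 to 113800516), stood at 3060.0, 3543, 3211, 3228, 3378, 3302 and 3211 CPM in microglia. Only 1 read of it was counted in the 2 non-microglia libraries together, a ratio of 21649-fold (95% interval 3885 to 855107). Rlbp1, the retinaldehyde-binding protein gene of Mueller glia (ENSMUSG00000039194, chromosome 7, 79374870 to 79387048), was at 1980.3 and 2026 CPM in non-microglia and at 134, 28.4, 24.2, 82.3, 28.8, 31.3 and 17.8 CPM in microglia (log2 fold change -5.38 ± 0.64 SE, with edgeR adjusted p = 0.0001705). Trpm1, a cation channel gene that ON bipolar cells need to answer light (ENSMUSG00000030523, chromosome 7, 64153835 to 64269775), was at 362 and 329 CPM in non-microglia and at 62.8, 4.79, 17.9, 14.8, 6.51, 3.81 and 0.791 CPM in microglia (log2 fold change -4.59 ± 0.83 SE, with edgeR adjusted p = 0.00172). Groups did not overlap for any of the 4 genes, which also held for 64.6% of all genes tested. Microglia replicate 2 was the highest microglia library for both retinal markers. The antibodies used for the sort are not named, so it is not known whether any gene described here served as the sort marker.

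**Figure D1:**
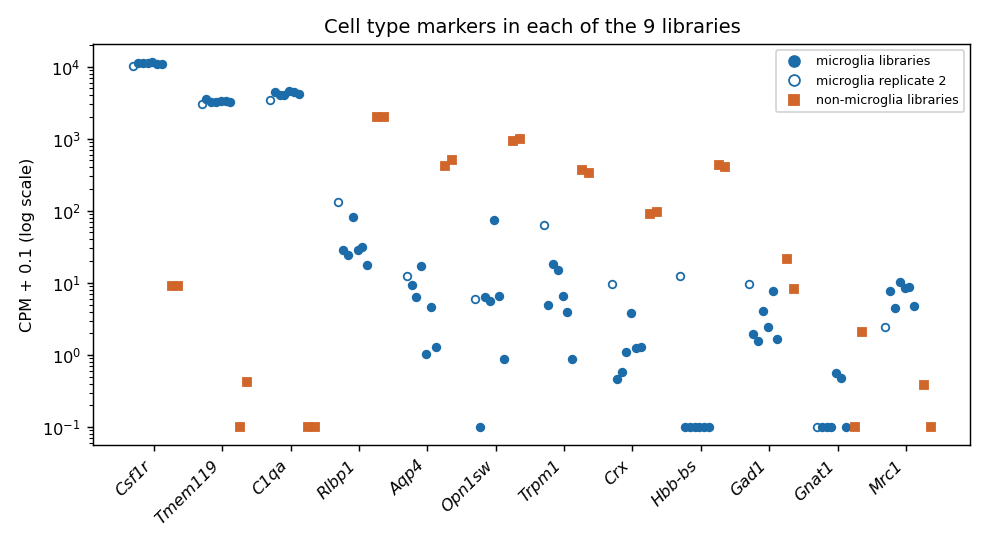
Levels of 12 marker genes in each of the 9 libraries, as CPM plus 0.1 on a log axis; circles are microglia libraries (replicate 2 open) and squares non-microglia libraries. Csf1r, Tmem119 and C1qa separate the fractions one way, Rlbp1, Aqp4, Opn1sw, Trpm1, Crx and Hbb-bs the other, while Gad1 overlaps between the fractions and Gnat1 and Mrc1 are low in every library.

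Most of the measured transcriptome differed between the fractions. Of 14500 genes tested, 4591 (31.7%) were called higher in microglia and 4697 (32.4%) lower, together 64.1%, so a call by itself says little about a gene. The median log2 fold change over all tested genes was 0.01. The change reached 16-fold in 912 of the higher and 1210 of the lower genes. In 312 of the higher genes both non-microglia libraries had 0 counts, and in 23 of the lower genes all 7 microglia libraries had 0. Samples of a sorted fraction are bulk RNA, in which fewer cells of a type and less RNA per cell cannot be told apart. Cells lost in dissociation or sorting cannot be told from cells missing in the retina either. The counts of each gene list below are to be read against the 31.7% and 32.4%.

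**Figure D2:**
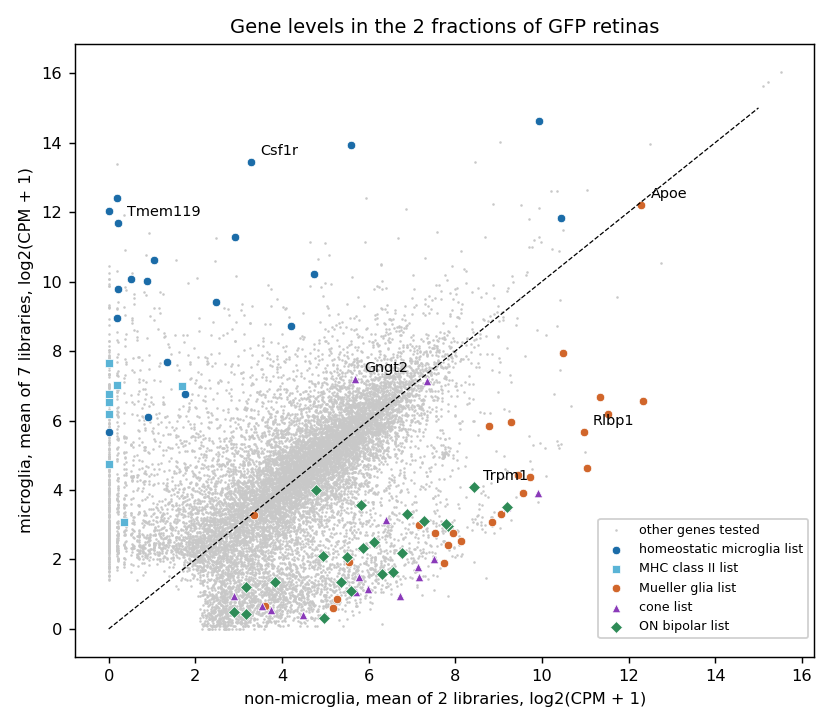
Log2(mean CPM + 1) of the 14500 tested genes in non-microglia (horizontal axis, 2 libraries) and microglia (vertical axis, 7 libraries), with members of 5 gene lists in colour and the line of equal levels dashed. Members of the homeostatic microglia and MHC class II lists lie above the line, nearly all Mueller glia, cone and ON bipolar genes below it, and Apoe of the Mueller glia list and Gngt2 of the cone list lie on or above it.

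Promoters of the genes that separated the fractions most are shown here, because many of the microglial ones hold the same short motif. Of the 200 protein-coding genes with the highest fitted fold in microglia and at least 20 CPM there, 151 had an entry in the RefSeq promoter table (GRCm38.p6, 250 bases before to 50 after the gene start). The letters AGGAAGT, the form of the ETS motif bound by the myeloid factor PU.1 (gene Spi1), stood on either strand in the promoters of 58 of these 151 genes (38.4%). They stood in those of 7 of 144 genes (4.86%) with the highest fold in non-microglia, and in 10.4% of the 9736 tested protein-coding genes with an entry. The ETS form CGGAAGT, which differs in 1 letter, gave 3.97%, 2.78% and 14.8% in the same order. The letters TAATCC, the core read by the photoreceptor and bipolar factors CRX and OTX2, gave 6.62% in the microglia set, 13.2% in the non-microglia set and 7.26% in all tested genes. The sets were chosen by fold change, so these shares are a description, and a match of letters does not show that a factor binds. The stretches below run in the direction of the gene, all before its RefSeq start, with the motif in capitals. Of the genes that held AGGAAGT before the start, the 8 with the highest fitted fold are shown. With few or 0 counts in non-microglia that fold depends on the prior count, so their order is not one of measured size. They were C1qc and C1qb of complement, C5ar1 (complement receptor), Lyz2 (lysozyme), Sash3 (an adaptor of blood cells), Ccl6 and Ccr6 (chemokine and chemokine receptor) and Apbb1ip (integrin adaptor). In the first 7, ACTTCCT is the motif read on the other strand.
C1qc, chr4:136893083-136893129, minus strand: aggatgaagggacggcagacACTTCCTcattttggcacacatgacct
C1qb, chr4:136886227-136886273, minus strand: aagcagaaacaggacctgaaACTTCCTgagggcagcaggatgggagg
C5ar1, chr7:16259502-16259548, minus strand: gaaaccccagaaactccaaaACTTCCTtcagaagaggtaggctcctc
Lyz2, chr10:117282346-117282392, minus strand: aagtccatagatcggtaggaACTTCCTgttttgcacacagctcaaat
Sash3, chrX:48146384-48146430, plus strand: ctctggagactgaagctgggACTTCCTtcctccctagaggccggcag
Ccl6, chr11:83593109-83593155, minus strand: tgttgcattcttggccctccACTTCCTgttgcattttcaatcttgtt
Ccr6, chr17:8235799-8235845, plus strand: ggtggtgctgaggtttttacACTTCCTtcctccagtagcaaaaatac
Apbb1ip, chr2:22774135-22774181, plus strand: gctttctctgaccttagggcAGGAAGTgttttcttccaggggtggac

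For the retinal fraction, the 2 genes below were chosen after their values were seen, as photoreceptor genes with TAATCC (on the other strand, GGATTA) before the start: Crx itself, the photoreceptor transcription factor, and Sag, rod arrestin. With them stand the 250 bases before the starts of the markers Trpm1, which holds GGATTA as well, and Rlbp1, in which none of the 3 motifs was found.
Crx, chr7:15880024-15880069, minus strand: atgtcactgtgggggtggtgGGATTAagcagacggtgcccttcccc
Sag, chr1:87803573-87803618, plus strand: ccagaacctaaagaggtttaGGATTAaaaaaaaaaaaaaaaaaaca
Trpm1, chr7:64153585-64153834, plus strand: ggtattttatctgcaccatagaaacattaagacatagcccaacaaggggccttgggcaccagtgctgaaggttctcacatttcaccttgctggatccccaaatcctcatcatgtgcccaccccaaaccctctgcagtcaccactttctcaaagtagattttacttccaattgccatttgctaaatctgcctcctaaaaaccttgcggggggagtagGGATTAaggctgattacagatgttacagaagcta
Rlbp1, chr7:79387028-79387277, minus strand: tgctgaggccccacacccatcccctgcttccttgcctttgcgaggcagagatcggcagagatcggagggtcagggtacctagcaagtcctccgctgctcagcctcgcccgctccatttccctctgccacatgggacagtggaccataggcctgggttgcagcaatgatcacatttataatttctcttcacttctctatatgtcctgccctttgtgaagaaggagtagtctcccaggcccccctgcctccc

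Genes known from resting microglia were higher in microglia than in the other cells of these retinas. All 20 members of the homeostatic list were called higher (median log2 fold change 9.26, or 8.46 with the genes at 0 set to their bound). The list made up 7.16% of raw counts in microglia against 0.332% in non-microglia, as means over libraries. In TMM-scaled CPM it summed to a mean of 78811 in microglia and 2484 in non-microglia. Cx3cr1, the fractalkine receptor gene (chromosome 9, 119901616 to 120069879), stood at 5431 ± 229 CPM (5101 to 5696 CPM, n = 7), with 1 read in non-microglia, a ratio of 35693-fold (95% interval 6406 to 1409820.5). Selplg, the P-selectin ligand gene, stood at 4179 ± 313 CPM and had 0 counts in both non-microglia libraries, at least 4558-fold higher. The smallest p were also those of 6 further genes. Pld4, of the phospholipase D family, stood at 1924 ± 129.6 CPM. Ptgs1, a cyclooxygenase, stood at 1207 ± 70.8 CPM, and Vsir, an immune checkpoint receptor, at 1564 ± 97.4 CPM. Mpeg1, a perforin of macrophages, stood at 2681 ± 222 CPM. Unc93b1, which carries nucleic-acid Toll-like receptors, stood at 1548 ± 80.3 CPM, and the extracellular Olfml3 at 1582 ± 129 CPM. None of the 6 exceeded 5.12 CPM in either non-microglia library.

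Levels of different genes were compared by exon length. Per kilobase of exon, Cst3, which encodes the protease inhibitor cystatin C, led at 20057 ± 2396 CPM per kb (n = 7), with Ctss (cathepsin S) at 7893 ± 597 and Ctsd (cathepsin D) at 7047 ± 723. The cathepsin S and cathepsin D levels overlapped within 1 SD of each mean. The mitochondrial mt-Nd1 (6586), C1qa (4007), C1qb (3539.8), Apoe (2197), the tetraspanin Cd81 (2153), Csf1r (1916), the adaptor Tyrobp (1895) and the protease legumain, Lgmn (1884 CPM per kb), were also among the first 12. Cst3 was also among the first 12 of non-microglia, at 776 CPM per kb. Of the 12, Apoe, the lipid carrier gene, was the one not called between the fractions: it stood at 4306, 4764, 4361, 4858, 4295, 5413 and 4879 CPM in microglia and 4908 and 5166 CPM in non-microglia (log2 fold change -0.101 ± 0.10 SE, with edgeR adjusted p = 0.3803).

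Transcription factors of the myeloid lineage were higher with 1 exception. Of 16 tested members, 15 were called higher and Bhlhe40 lower (list median 5.76). Irf5, an interferon regulatory factor, was at 576 ± 41.9 CPM against 6.54 and 8.17 CPM (log2 fold change 6.29 ± 0.17 SE, with edgeR adjusted p = 4.22e-14). Bhlhe41 was at 489 ± 58.9 CPM against 103 and 115 CPM (log2 fold change 2.17 ± 0.14 SE, with edgeR adjusted p = 2.20e-09). Its paralog Bhlhe40 ran the other way, at 15.2 ± 5.68 CPM against 145 and 142 CPM (log2 fold change -3.24 ± 0.25 SE, with edgeR adjusted p = 1.96e-07). Irf8, a factor that microglia and macrophages need, was called higher too (log2 fold change 8.897), but replicate 5 stood apart, at 253 CPM against 592 to 726 in the other 6 microglia libraries. Spi1, the gene of PU.1, named after its values were seen, was at 259, 293, 151, 68.98, 93.9, 107 and 103 CPM in replicates 2 to 8, with 1 read in non-microglia (ratio 1009.6-fold, 95% interval 181 to 39893). Replicates 2, 3 and 4 were above the other 4 libraries, and the voom fit of limma did not call Spi1 (adjusted p = 0.115).

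Complement showed a division between fractions. Of 21 tested genes of complement and Fc receptors, 15 were called higher in microglia and 5 lower (median 9.18, or 8.27 with genes at 0 at their bound). The chains of C1q, the starter of the classical pathway, were microglial. C1qa was at 3464, 4404, 4087, 4073, 4532, 4470.2 and 4142 CPM with 0 counts in both non-microglia libraries, at least 4546-fold higher. C1qb was at 3851 ± 319 CPM with 2 reads in non-microglia (ratio 12756-fold, 95% interval 3531 to 105337). C1qc was at least 1534-fold higher but uneven, at 2332, 2868 and 1691 CPM in replicates 2 to 4 and 388, 908, 896 and 762 in replicates 5 to 8. The voom fit of limma did not call it (adjusted p = 0.258). The integrin chains of the receptor for cleaved C3, Itgam and Itgb2, named after their values were seen, had 0 counts in non-microglia (at least 1322-fold and 1013-fold higher). Other genes overlap 68.7% of Itgam's exon bases. Genes that restrain complement were among the lower ones. Clu, clusterin, was at 15.4 to 208 CPM in microglia against 2911 and 3022 CPM (log2 fold change -5.39 ± 0.85 SE, with edgeR adjusted p = 0.000849). Serping1, the C1 inhibitor, was at 2.65 ± 2.34 CPM against 80.5 and 93.1 CPM (log2 change of -5.09 at edgeR adjusted p = 5.07e-07). Cd59a, which blocks the membrane attack complex, was at 3.63 ± 2.12 CPM against 33 and 32.3 CPM (log2 change of -3.14 at edgeR adjusted p = 2.21e-06). C4b, a component of the classical pathway, was lower as well, at 69.4 to 189.7 CPM in microglia against 339.7 and 339 CPM (log2 fold change -1.81 ± 0.32 SE, with edgeR adjusted p = 0.00111), with the highest microglial value in replicate 5. C3, the central component, was low in both fractions and not called (7.33 ± 2.81 CPM against 7.397 and 6.86 CPM, log2 change of 0.05 at edgeR adjusted p = 0.927), with a sign that depended on the scaling. Its receptor C3ar1 was at 374 ± 30.3 CPM with 1 read in non-microglia (ratio 2469.5-fold, 95% interval 443 to 97556).

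Innate sensing, chemokine and lysosomal genes were nearly all higher in microglia. All 21 tested pattern receptor and inflammasome genes were called higher (median 8.06, or 5.79 at the bound). Ly86, partner of a Toll-like receptor homolog, stood at 935 ± 74.9 CPM and the endosomal receptor Tlr13 at 313 ± 33.5 CPM, both with 0 counts in non-microglia (at least 1020.1-fold and 341-fold higher). Cd14, the endotoxin co-receptor (612 ± 36.2 CPM), and Cd84, a receptor of the SLAM family (321 ± 14.9 CPM), had 2 reads and 1 read there. Of 17 chemokine genes tested, 14 were higher and 2 lower (median 8.05, or 6.38 at the bound): the ligand gene Ccl6 was at 230.5 ± 26.1 CPM and the receptor gene Ccr6 at 219 ± 21.4 CPM. Cxcl12, a chemokine of stromal and endothelial cells, was lower, at 2.396 ± 2.35 CPM against 122 and 65.3 CPM (log2 fold change -5.36 ± 0.50 SE, with edgeR adjusted p = 5.49e-06), and so was Cxcl16 (56.9 ± 9.14 CPM against 82.8 and 92.8 CPM, log2 change of -0.62 at edgeR adjusted p = 0.00227). Of 25 lysosomal hydrolase genes, 24 were higher and 0 lower (median 3.38). Ctsb was at 4849 ± 418 CPM against 468 and 469 CPM (log2 fold change 3.37 ± 0.12 SE, with edgeR adjusted p = 1.53e-12). Ctsd was at 16567 ± 1701 CPM against 501 and 537 CPM (log2 fold change 4.996 ± 0.15 SE, with edgeR adjusted p = 1.32e-13), with 34.4% of its exon bases in other genes too. Of Ctss, at 10719 ± 811 CPM, the non-microglia libraries held 1 read.

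Most members of the list known from disease-associated microglia were higher in microglia. Of 25 members, 19 were called higher, 3 lower and 3 were not called (median 3.48). Tyrobp, the signalling adaptor of TREM2, was at 1264 ± 146 CPM with 1 read in non-microglia, and B2m, the light chain of MHC class I, at 1452 ± 198 CPM against 68.8 and 84.9 CPM (log2 fold change 4.24 ± 0.18 SE, with edgeR adjusted p = 1.91e-11). The 3 lower members were Timp2, a metalloprotease inhibitor (66.6 ± 6.25 CPM against 96.7 and 96.04 CPM, log2 change of -0.54 at edgeR adjusted p = 0.00121), Lgals3 and Igf1. Lgals3, a galectin, was at 15.7 ± 5.17 CPM against 28.7 and 24.5 CPM (log2 fold change -0.74 ± 0.27 SE, with edgeR adjusted p = 0.02698). That call ended without non-microglia replicate 1 (adjusted p = 0.196) or replicate 2 (0.0659). Igf1, a growth factor, was at 1.73 ± 1.88 CPM against 5.97 and 5.55 CPM (log2 fold change -1.72 ± 0.70 SE, with edgeR adjusted p = 0.0422). The groups overlapped, and the call ended without microglia replicate 3, 4, 5 or 8 or either non-microglia library (adjusted p = 0.0569 to 0.214). On the MHC class II list, which also holds co-stimulators such as Cd86, all 8 tested members were higher (median 9.91, or 6.47 at the bound), at moderate levels. The invariant chain Cd74 stood at 130.1 ± 34.4 CPM. The peptide loaders H2-DMa and H2-DMb1 stood at 127 ± 10.3 CPM and 108 ± 10.04 CPM, and the co-stimulator Cd86 at 200.3 ± 18.2 CPM. The chains of the presenting molecule itself are named after their values were seen. H2-Ab1 was at 91.6 ± 25.8 CPM and H2-Aa at 25.7 ± 24 CPM, both called higher with 0 counts in non-microglia (at least 99.9-fold and 28.01-fold), and H2-Eb1 at 2.83 ± 1.12 CPM. The call of H2-Aa (1.45 to 69.8 CPM, edgeR adjusted p = 0.0343) ended without microglia replicate 2, 5 or 8 or either non-microglia library (0.0501 to 0.125). Ciita, the master activator of the class II genes, also named after its values were seen, was at 1.27 ± 1.39 CPM against 2.28 and 0.98 CPM. H2-Eb1 and Ciita were too low to be tested.

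Markers of other leukocytes were low in both fractions. Of 22 listed genes of monocytes, perivascular macrophages, neutrophils and lymphocytes, 17 stood under 2 CPM in microglia and 5 could be tested, of which 4 were called higher in microglia. Their summed level was 21.8 to 47.9 CPM in the microglia libraries and 8.53 and 13.1 in non-microglia. Ccr2, of monocytes, was at 8.34 ± 2.45 CPM (4.84 to 13.03 CPM, 0 counts in non-microglia), Mrc1, of perivascular macrophages, at 6.67 ± 2.87 CPM, and Ms4a7 at 4.78 ± 3.603 CPM. Lyve1 was lower in microglia (0.9898 ± 1.33 CPM against 6.54 and 8.82 CPM, log2 fold change -3.01 ± 0.79 SE, with edgeR adjusted p = 0.00352), a call that ended without non-microglia replicate 2 (adjusted p = 0.0675). Named after their values were seen, the monocyte gene Ly6c2, the neutrophil genes Ly6g and S100a8 and the T cell gene Cd3e averaged no more than 0.217 CPM in microglia.

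Genes of Mueller glia were among the most abundant of the non-microglia fraction. Of 25 Mueller glia genes, 0 were higher in microglia, 23 were lower and 2 were not called (median -5.39). By length, the first 12 genes of non-microglia held Apoe (2356 CPM per kb, n = 2), the secreted Wnt pathway modulator Dkk3 (1537), Clu (863), Rlbp1 (678), the membrane glycoprotein Bsg (605), the membrane protein Itm2b (529), hemoglobin Hbb-bs (544) and 4 mitochondrial genes from mt-Nd1 (2206) to mt-Nd5 (534). Dkk3 was at 5080.1 and 5244 CPM in non-microglia and 26.9 to 208 CPM in microglia (log2 fold change -5.796 ± 0.69 SE, with edgeR adjusted p = 0.000164). Gpr37, a receptor gene of glia, was at 2079 and 2166 CPM against 7.91 to 55.7 CPM (log2 fold change -6.52 ± 0.51 SE, with edgeR adjusted p = 1.18e-05). Slc1a3, the glutamate transporter of Mueller glia, was at 2615 and 2544 CPM against 64.6 to 149.8 CPM (log2 fold change -4.68 ± 0.26 SE, with edgeR adjusted p = 4.36e-07). Sox9, a factor of glial and progenitor cells, Kcnj10, the potassium channel, and Lhx2, another glial factor, all named after their values were seen, changed by -5.98, -5.45 and -5.98 on the log2 scale. The summed Mueller glia level of microglia, 4825 to 6163 CPM, came mostly from Apoe.

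Genes of gliosis were mostly lower in microglia. Of 16 tested, 12 were lower in microglia and 2 higher (median -2.59). Gfap, the filament gene that Mueller glia switch on in injury, was at 518 and 496 CPM in non-microglia and at 23.1, 7.74, 10.7, 48.3, 5.58, 35.1 and 7.12 CPM in microglia (log2 fold change -4.71 ± 0.60 SE, with edgeR adjusted p = 0.000247). Vim, vimentin, was at 624 and 627 CPM against 45.5 to 85.9 CPM (log2 fold change -3.37 ± 0.20 SE, with edgeR adjusted p = 6.13e-08). Cp, the copper ferroxidase ceruloplasmin, was at 1353 and 1352 CPM against 12.6 to 81.7 CPM (log2 fold change -5.28 ± 0.54 SE, with edgeR adjusted p = 6.76e-05). Cd44, named after its values were seen, was at 260.3 and 270.5 CPM against 4.18 to 17.8 CPM (log2 change of -4.59 at edgeR adjusted p = 1.16e-06). The 2 higher members were Socs3, a brake on cytokine signalling (454 ± 64.5 CPM against 27.6 and 53.9 CPM, log2 fold change 3.48 ± 0.26 SE, with edgeR adjusted p = 3.19e-07), and the chemokine Ccl2 (37.8 ± 10.1 CPM against 0.854 and 6.21 CPM, log2 fold change 3.46 ± 0.52 SE, with edgeR adjusted p = 0.000103). Of 8 tested astrocyte genes, 7 were lower and 1 was higher (median -4.39), and several of these are shared with Mueller glia. Aqp4, the water channel, was at 418 and 501 CPM against 0.929 to 17.2 CPM (log2 fold change -6.003 ± 0.50 SE, with edgeR adjusted p = 1.29e-05). Slc1a2, a glutamate transporter, was at 136 and 148 CPM against 0 to 17.2 CPM (log2 change of -4.48 at edgeR adjusted p = 0.000399). Aldh1l1 of folate metabolism was at 99.3 and 114 CPM against 3.56 to 24.9 CPM (log2 change of -3.24 at edgeR adjusted p = 0.000294). The higher member was the myelin gene Mbp, at 21.3 ± 5.26 CPM against 3.698 and 4.9 CPM (log2 fold change 2.31 ± 0.33 SE, with edgeR adjusted p = 1.76e-05).

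Most cone genes, and most tested genes of the rod list, were lower in microglia. Of 16 cone genes, 14 were lower in microglia and 1 was higher (median -5.67). Opn1sw, the short-wavelength opsin, was at 927 and 980.0 CPM in non-microglia and at 5.92, 0, 6.29, 5.42, 74.3, 6.48 and 0.791 CPM in microglia (log2 fold change -6.104 ± 1.04 SE, with edgeR adjusted p = 0.00131). Gnat2, cone transducin, was at 159.6 and 204 CPM against 0 to 9.29 CPM (log2 fold change -5.96 ± 0.47 SE, with edgeR adjusted p = 3.20e-06). Gnb3, its beta subunit, which ON bipolar cells also use, was at 555 and 609.9 CPM against 0.381 to 48.5 CPM (log2 change of -5.996 at edgeR adjusted p = 0.000613). Opn1mw, the middle-wavelength opsin, named after its values were seen, was at 109 and 173 CPM against 0 to 6.97 CPM (log2 change of -5.94 at edgeR adjusted p = 2.24e-05). Of the rod list, 5 genes are named after their values were seen. Gnat1, rod transducin, was at 0 and 1.96 CPM in non-microglia. The rod factor Nrl had 0 counts in both non-microglia libraries, and Nr2e3 was at 0.569 and 0.653 CPM. None of the 3 passed the filter. Other rod genes were counted there: Gngt1, the gamma subunit of rod transducin, was at 27.9 and 46.1 CPM against 0 to 1.78 CPM (log2 change of -5.88 at edgeR adjusted p = 2.09e-08), and Pde6a, of the rod phosphodiesterase, at 6.54 and 12.7 CPM against 0 to 0.465 CPM (log2 change of -5.77 at edgeR adjusted p = 3.49e-06). Of 12 tested members of the rod list, 8 were lower in microglia and 2 higher (median -4.96). Of the lower ones, Sag, an arrestin that mouse cones also make, was at 243 and 313 CPM against 0.791 to 7.43 CPM (log2 fold change -6.42 ± 0.29 SE, with edgeR adjusted p = 2.59e-09). Prph2 and Rom1, disc proteins of rods and cones, were at 105 and 116 CPM and 90.8 and 99.6 CPM. Pde6g, the inhibitory subunit of the rod phosphodiesterase, was at 73.7 and 98.7 CPM.

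Some photoreceptor genes ran against their list. Gngt2, the gamma subunit of cone transducin, was higher in microglia, at 146 ± 16.3 CPM against 39.8 and 60.8 CPM (log2 fold change 1.55 ± 0.17 SE, with edgeR adjusted p = 8.21e-07). Pde6h, the inhibitory subunit of the cone phosphodiesterase, named after its values were seen, overlapped between the fractions and was not called (138 ± 8.97 CPM against 139.7 and 186 CPM, log2 change of -0.23 at edgeR adjusted p = 0.0946). In the rod list the higher genes were Gnb1, a widely used G protein subunit (74.9 ± 15.4 CPM against 46.1 and 47.04 CPM, log2 change of 0.69 at edgeR adjusted p = 0.00452), and Samd11 (16.4 ± 3.501 CPM against 4.84 and 3.92 CPM, log2 change of 1.88 at edgeR adjusted p = 0.000123). Of 10 factor and stress genes of photoreceptors, 8 were lower and 0 higher (median -4.87). Crx was at 88.8 and 95.4 CPM in non-microglia and 2.48 ± 3.28 CPM in microglia. Otx2, which acts beside it and in bipolar cells, was at 49.2 and 53.9 CPM against 2.15 ± 4.301 CPM. These microglial means rest largely on replicate 2: without it they were 1.31 CPM for Crx and 0.541 CPM for Otx2. The factors Rorb (382 and 349 CPM against 8.74 ± 7.27 CPM) and Six6 (135 and 144 CPM against 3.16 ± 2.395 CPM) were lower too.

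Among the inner neuron lists, that of ON bipolar cells was lower in full. All 22 members of their list were lower in microglia (median -4.40). Besides Trpm1, Gnao1, the G protein of their light response, was at 228 and 226 CPM against 1.94 to 19.5 CPM (log2 fold change -5.14 ± 0.43 SE, with edgeR adjusted p = 6.09e-06). Grm6, their glutamate receptor, named after its values were seen, was at 123 and 114 CPM against 0.395 to 26.6 CPM (log2 fold change -3.83 ± 0.72 SE, with edgeR adjusted p = 0.00191). Pcp2, a G protein modulator, was at 231 and 208 CPM against 0.395 to 27.2 CPM (log2 change of -5.08 at edgeR adjusted p = 0.000141), with 51.5% of its exon bases in another gene. Of 11 tested genes of OFF and all bipolar cells, 8 were lower and 2 higher (median -3.45). Grik1, a glutamate receptor of OFF bipolar cells, was at 53.8 and 57.5 CPM against 2.77 to 45 CPM (log2 change of -2.37 at edgeR adjusted p = 0.0454), a call that ended without microglia replicate 3, 4, 5, 6, 7 or 8 or either non-microglia library (adjusted p = 0.0562 to 0.165). The 2 higher members were Samsn1, an adaptor gene also known from blood cells (191 ± 22.1 CPM against 2.85 and 5.55 CPM, log2 fold change 5.51 ± 0.23 SE, with edgeR adjusted p = 1.04e-11), and the secreted Nxph1 (2.78 ± 2.01 CPM, 0 counts in non-microglia).

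Many listed genes of amacrine and ganglion cells, and some of horizontal cells, stood under 2 CPM in non-microglia, while others did not. Of 31 amacrine genes, 23 stood under 2 CPM in non-microglia and 10 were tested, of which 6 were lower in microglia and 1 higher (median -1.62). Named after their values were seen, the transmitter genes Gad2 (2.28 and 0.327 CPM), Slc32a1 (0.569 and 0.327 CPM), Chat (0 and 0.327 CPM) and Th (0 and 0 CPM) were among the low ones. Other members, named likewise, were not: Slc6a9 averaged 38.1 CPM in non-microglia and 16.02 CPM in microglia and was not called. Ebf1 averaged 13.07 CPM in non-microglia and 1.38 CPM in microglia and was called lower. Pax6, a factor known from Mueller glia too, was at 266 and 268 CPM against 0.929 to 14.8 CPM (log2 fold change -5.54 ± 0.45 SE, with edgeR adjusted p = 6.71e-06). Gad1, which makes GABA, was at 21.6 and 8.17 CPM and overlapped microglia (1.45 to 9.47 CPM). It was not called without non-microglia replicate 1 (adjusted p = 0.301 against 0.00916 with all libraries, edgeR). Gng3, a neuronal G protein subunit, was at 23.9 and 26.8 CPM against 7.51 to 17.7 CPM (log2 change of -0.93 at edgeR adjusted p = 0.00467, and 0.0594 without non-microglia replicate 2). Ebf3, a developmental factor, was higher in microglia (7.51 ± 1.81 CPM against 1.42 and 0.327 CPM, log2 change of 2.98 at edgeR adjusted p = 0.000314). Of 20 ganglion cell genes, 14 were under 2 CPM in non-microglia. Named after their values were seen, the factors Pou4f1, Pou4f2 and Pou4f3 had 1 count in all in the 2 libraries. Rbpms, named likewise, was at 4.84 and 3.27 CPM and not called. Of the 9 tested, 4 were higher in microglia and 2 lower (median 1.64). The higher ones included Spp1, osteopontin, which activated microglia also make (283 ± 76.9 CPM, 2 reads in non-microglia, ratio 951-fold, 95% interval 263 to 7858). The neurofilament genes were higher as well, Nefm (10.2 ± 2.704 CPM against 3.98 and 1.96 CPM, log2 change of 1.73 at edgeR adjusted p = 0.001896) and Nefl (22.3 ± 10.6 CPM against 10.5 and 3.27 CPM, log2 change of 1.64 at edgeR adjusted p = 0.0185, and 0.163 without non-microglia replicate 2). Gap43, of growing axons, was lower (0.8395 ± 1.17 CPM against 8.25 and 9.8 CPM, log2 change of -3.46 at edgeR adjusted p = 0.00133). So was the potassium channel gene Kcng4 (1.82 ± 1.75 CPM against 6.54 and 10.4 CPM, log2 change of -2.31 at edgeR adjusted p = 0.00994, and 0.157 without non-microglia replicate 2).

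Of 6 tested horizontal cell genes, 4 were lower in microglia and 1 higher (median -2.64). Prox1, also known from bipolar cells and Mueller glia, was at 104 and 90.5 CPM against 6.97 to 18.2 CPM (log2 fold change -3.23 ± 0.21 SE, with edgeR adjusted p = 2.24e-09). Ndnf, a secreted neurotrophic factor, was at 298 and 472 CPM against 4.75 to 33.2 CPM (log2 change of -4.84 at edgeR adjusted p = 4.22e-05). Sept4, a septin, was at 160.2 and 164 CPM against 1.19 to 13.6 CPM (log2 change of -4.799 at edgeR adjusted p = 1.30e-06). Slc4a3, an anion exchanger, was at 31.3 and 26.8 CPM against 2.79 to 16.6 CPM (log2 change of -2.05 at edgeR adjusted p = 0.001199). The higher member was Megf11, at 11.9 ± 4.77 CPM against 2.56 and 7.19 CPM (log2 change of 1.29 at edgeR adjusted p = 0.0251, and 0.2915 without non-microglia replicate 1). Lhx1, Onecut1 and Calb1, which define these cells and were named after their values were seen, had 1, 1 and 2 counts over both non-microglia libraries. The synapse list, common to several neuron types, had 21 of 27 tested genes lower and 0 higher (median -2.83). Snap25, of vesicle fusion, was at 222 and 247 CPM against 10.7 to 50.9 CPM (log2 fold change -3.59 ± 0.40 SE, with edgeR adjusted p = 6.19e-05). Syt1, the calcium sensor of release, was at 229 and 226 CPM against 12.2 to 81.7 CPM (log2 change of -2.91 at edgeR adjusted p = 0.00218). Nrxn3, a neurexin, was at 139 and 154 CPM against 0.395 to 52.1 CPM (log2 change of -3.26 at edgeR adjusted p = 0.00862, and 0.0508 without non-microglia replicate 2), and Vamp2 of the vesicle membrane at 121 and 129.7 CPM against 22.9 to 37.9 CPM (log2 change of -1.99 at edgeR adjusted p = 1.45e-08).

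Genes of vessels, blood and pigment epithelium were mostly lower in microglia. Of 17 endothelial genes tested, 14 were lower in microglia and 0 higher (median -2.45), but their levels did not run together. Kdr, a receptor for VEGF, was at 1184 and 999 CPM against 10.7 to 36.7 CPM (log2 fold change -5.77 ± 0.26 SE, with edgeR adjusted p = 2.72e-08), and per kilobase it reached 121 ± 14.5 CPM per kb (n = 2). By the same measure the tight junction gene Cldn5 was at 64.02 ± 23.97, and, named after their values were seen, Pecam1 at 4.29 ± 2.07 and the endothelial cadherin Cdh5 at 0.4701 ± 0.00528 CPM per kb. Kdr is also known from retinal neurons and Mueller glia. Cldn5 was at 115 and 66.6 CPM and, without non-microglia replicate 1, not called (adjusted p = 0.0736 against 0.00678 with all libraries, edgeR). Flt1, another VEGF receptor, was at 225 and 186 CPM against 0 to 26.6 CPM (log2 fold change -5.22 ± 0.77 SE, with edgeR adjusted p = 0.000541). Slc2a1, the glucose transporter of the blood-retina barrier and Mueller glia, was at 192 and 168 CPM against 27.3 to 59.2 CPM (log2 fold change -2.34 ± 0.19 SE, with edgeR adjusted p = 1.46e-07). Of 11 pericyte and fibroblast genes, 10 were lower (median -3.97). The pericyte gene Rgs5 differed between the 2 non-microglia libraries, at 413 and 115 CPM, as did Acta2 (77.95 and 36.3 CPM) and Pdgfrb (139 and 88.5 CPM), and replicate 1 was the higher in each. The list's summed level was 861 and 391 CPM.

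Hemoglobin was present in non-microglia, with Hbb-bs at 437 and 398 CPM, Hba-a1 at 242 and 211 CPM and Hbb-bt at 28.4 and 24.2 CPM. The heme synthesis gene Alas2 was at 44.95 and 42.1 CPM. All 4 tested erythroid genes were lower in microglia (median -8.04). Alpha and beta globin genes have near-identical copies, between which reads cannot be assigned with certainty. In microglia Hbb-bs had 21 counts in replicate 2 and 0 in the other 6 libraries. Of 11 pigment epithelium genes tested, 9 were lower and 2 higher (median -4.25). Ttr, transthyretin, was at 44.4 and 96.4 CPM. Rgr, an opsin shared with Mueller glia, was at 62.3 and 77.8 CPM, and was not called without non-microglia replicate 2 (edgeR adjusted p = 0.0555). Rdh5, a retinol dehydrogenase, was at 46.4 and 56.2 CPM against 29.4 ± 2.902 CPM in microglia (log2 change of -0.804 at edgeR adjusted p = 0.000257). The higher members were Mitf, a factor that macrophages also use (24.6 ± 4.19 CPM against 2.85 and 4.9 CPM, log2 fold change 2.66 ± 0.31 SE, with edgeR adjusted p = 1.90e-06), and Best1, a chloride channel (7.02 ± 2.03 CPM against 2.56 and 2.61 CPM, log2 change of 1.41 at edgeR adjusted p = 0.0137). Best1 was not called without either non-microglia library (adjusted p = 0.0823 and 0.0729). Crystallins divided as well. The small heat shock protein Cryab was lower in microglia (5.81 ± 4.38 CPM against 187 and 179 CPM, log2 change of -5.05 at edgeR adjusted p = 7.13e-07), as was Crybb3, whose 28 counts all lay in non-microglia. Crybb1 (23.3 ± 5.003 CPM against 0.854 and 1.63 CPM, log2 change of 4.197 at edgeR adjusted p = 2.29e-07) and its genomic neighbour Cryba4 (21.6 ± 1.996 CPM, 2 reads in non-microglia) were higher in all 7 microglia libraries.

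**Figure D3:**
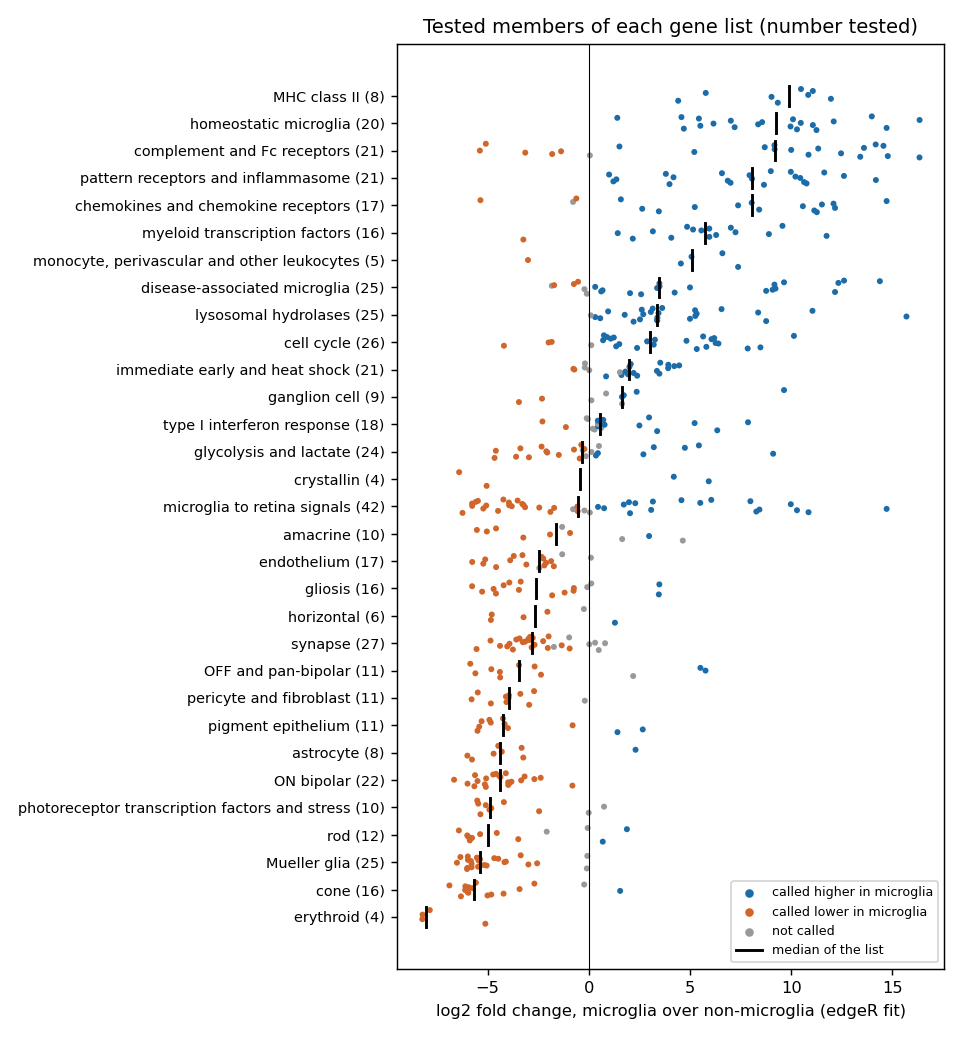
Log2 fold change (microglia over non-microglia, edgeR) of the tested members of 31 gene lists, ordered by the list median (black bar), with the number tested in brackets. Blue members were called higher, orange ones lower and grey ones not; the value of a gene with 0 counts in one fraction depends on the model and is no measured fold.

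The 12 lower genes with the smallest p included Psat1 and Slc1a4, which make and carry serine, and the fatty acid genes Slc27a1 and Scd2. Eno1 and its near-identical copy Eno1b, of glycolysis, and Cyb5r1, a reductase, were among them as well. The others were Col18a1, a basement membrane collagen, Inf2, an actin formin, Epha4, an ephrin receptor, Ptch1, the hedgehog receptor, and Jam3, a junction protein. Psat1, which makes phosphoserine (chromosome 19, 15904678 to 15947337), was at 576 and 536 CPM against 70.4 to 87.4 CPM (log2 fold change -2.81 ± 0.09 SE, with edgeR adjusted p = 5.19e-13). Slc1a4, a carrier of neutral amino acids, was at 276 and 276 CPM against 12.96 to 24.6 CPM (log2 fold change -4.11 ± 0.15 SE, with edgeR adjusted p = 1.38e-12), while Phgdh, the first enzyme of serine synthesis, named after its values were seen, differed less (105 and 108 CPM against 57.1 to 75.9 CPM, log2 change of -0.72 at edgeR adjusted p = 8.66e-05). Slc27a1, a fatty acid transporter, was at 509 and 479.6 CPM against 25.6 to 40.9 CPM (log2 change of -3.86 at edgeR adjusted p = 8.57e-13). Scd2, a desaturase, was at 276 and 261 CPM against 35.4 to 45.01 CPM (log2 change of -2.77 at edgeR adjusted p = 2.31e-12). Col18a1 was at 186 and 212 CPM against 1.14 to 4.93 CPM (log2 change of -6.45 at edgeR adjusted p = 1.72e-12). Epha4 was at 181 and 188 CPM against 2.21 to 7.39 CPM (log2 change of -5.72 at edgeR adjusted p = 3.35e-12) and Ptch1 at 193 and 191 CPM against 9.21 to 17.4 CPM (log2 change of -3.85 at edgeR adjusted p = 5.19e-12). The groups did not overlap for any of the 12, which were picked by their small p. Over all tested genes, 9368 (64.6%) did not overlap either.

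Fuel genes divided by isoform. Of 24 genes of glycolysis and lactate transport, 13 were lower in microglia and 7 higher (median -0.34). Eno1 was at 1358 and 1383 CPM in non-microglia against 154 to 216 CPM (log2 fold change -2.96 ± 0.11 SE, with edgeR adjusted p = 1.58e-12). Aldoc, the aldolase of glia, was at 998 and 991 CPM against 12.3 to 89.7 CPM (log2 fold change -4.66 ± 0.68 SE, with edgeR adjusted p = 0.000529), whereas the common aldolase Aldoa differed less (648 and 715 CPM against 426 to 569 CPM, log2 change of -0.45 at edgeR adjusted p = 0.00164). Pkm, pyruvate kinase, was lower by a small step (log2 change of -0.22 at edgeR adjusted p = 0.0392), and its call ended without microglia replicate 6, 7 or 8 or non-microglia replicate 1 (adjusted p = 0.0652 to 0.359). Of the higher genes, Hk3, a hexokinase of myeloid cells, was at 111 ± 16.1 CPM with 1 read in non-microglia. Hk2, a hexokinase of many cells, was at 122 ± 13.6 CPM against 18.2 and 19.6 CPM (log2 fold change 2.69 ± 0.16 SE, with edgeR adjusted p = 5.83e-10). Slc2a5, the fructose transporter of microglia, was at 107 ± 22.7 CPM against 2.85 and 1.96 CPM (log2 fold change 5.44 ± 0.35 SE, with edgeR adjusted p = 1.22e-08). Lactate carriers went opposite ways. Slc16a3 was at 82.1 ± 12.8 CPM in microglia against 4.27 and 1.63 CPM (log2 fold change 4.74 ± 0.30 SE, with edgeR adjusted p = 1.17e-09). Slc16a1, named after its values were seen, was at 18.9 ± 4.24 CPM against 197 and 197 CPM (log2 fold change -3.38 ± 0.16 SE, with edgeR adjusted p = 2.91e-11). Gapdh, named after its values were seen, was not called (232 ± 20.4 CPM against 253 and 260.4 CPM, log2 change of -0.15 at edgeR adjusted p = 0.242).

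Ligand and receptor genes through which the retina and its microglia communicate were divided between the fractions, with some pairs on one side. Of 43 such genes 42 were tested, with 18 called higher in microglia and 21 lower (median -0.56). Of the 2 ligands of CSF1R, Csf1 overlapped between the fractions and was not called, at 22.5, 16.2, 11.6, 15.8, 26.02, 28.98 and 26.5 CPM in microglia and 24.5 and 24.8 CPM in non-microglia (log2 fold change -0.22 ± 0.28 SE, with edgeR adjusted p = 0.514). Il34, the other, was low and lower in microglia (0.831 ± 0.729 CPM against 11.1 and 4.25 CPM, log2 fold change -3.15 ± 0.65 SE, with edgeR adjusted p = 0.000504), and was not called without non-microglia replicate 1 (adjusted p = 0.095). The receptors for the related GM-CSF, Csf2ra and Csf2rb, were at 233 ± 26.96 CPM and 227 ± 15.3 CPM in microglia against 26.5 and 28.8 CPM and 0.854 and 0.327 CPM.

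The genes of TGF-beta were expressed by different fractions. Tgfb1 was at 15.4, 12.5, 13.6, 8.87, 10.7, 11.8 and 15.8 CPM in microglia, with 0 counts in both non-microglia libraries (at least 13.8-fold higher, edgeR adjusted p = 4.51e-07). Tgfb2 ran the other way, at 261 and 262 CPM in non-microglia and 20.7, 5.53, 1.94, 4.93, 2.79, 4.58 and 3.16 CPM in microglia (log2 fold change -5.48 ± 0.45 SE, with edgeR adjusted p = 7.05e-06). Tgfb3 was lower in microglia as well (20.5 and 16.7 CPM against 1.75 ± 2.096 CPM, log2 fold change -3.52 ± 0.66 SE, with edgeR adjusted p = 0.000448). Per kilobase of exon, Tgfb2 in non-microglia (45.1 ± 0.137 CPM per kb, n = 2) was far above Tgfb1 in microglia (2.51 ± 0.494, n = 7). Both receptor chains were higher in microglia. Tgfbr1 was at 420.5 ± 51.5 CPM against 18.8 and 16.3 CPM (log2 fold change 4.58 ± 0.18 SE, with edgeR adjusted p = 3.52e-12). Tgfbr2 was at 682, 781, 663, 198, 474, 467 and 382 CPM against 11.1 and 4.25 CPM (log2 fold change 6.05 ± 0.77 SE, with edgeR adjusted p = 0.000228). For activation of the latent protein, Nrros, which anchors it on microglia, was at 204 ± 20.9 CPM with 1 read in non-microglia (ratio 1347-fold, 95% interval 242 to 53224). Ltbp1, which anchors it in the matrix, was lower in microglia (2.64 ± 2.53 CPM against 41.5 and 42.8 CPM, log2 change of -3.94 at edgeR adjusted p = 9.39e-05). So was Itgb8, an integrin chain that releases it (4.38 ± 4.17 CPM against 56.3 and 61.1 CPM, log2 fold change -3.81 ± 0.58 SE, with edgeR adjusted p = 0.000264). Its partner Itgav was lower by a small step, with groups that overlapped (32.9 ± 7.0 CPM against 55.2 and 42.1 CPM, log2 change of -0.57 at edgeR adjusted p = 0.0203) and not called without non-microglia replicate 1 (adjusted p = 0.297).

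Receptors for dying cells, with the exception of Tyro3, and inhibitory receptors were higher in microglia. Mertk was at 521 ± 60.5 CPM against 162 and 153 CPM (log2 fold change 1.73 ± 0.13 SE, with edgeR adjusted p = 1.58e-08). Axl, of the same family, was at 297 ± 40.3 CPM against 69.1 and 76.1 CPM (log2 fold change 2.03 ± 0.15 SE, with edgeR adjusted p = 1.07e-08). Their relative Tyro3 was lower (1.34 ± 0.738 CPM against 24.5 and 25.1 CPM, log2 fold change -4.22 ± 0.37 SE, with edgeR adjusted p = 6.08e-08). The bridging ligands of the 3 receptors were higher in microglia too. Pros1, protein S, was at 731 ± 82.3 CPM against 184 and 186 CPM (log2 fold change 1.98 ± 0.13 SE, with edgeR adjusted p = 2.27e-09). Gas6 was at 207 ± 30.7 CPM against 140.0 and 106 CPM (log2 fold change 0.75 ± 0.16 SE, with edgeR adjusted p = 0.000758). Of the inhibitory pairs, the receptor Cd200r1 was at 15.5 ± 1.51 CPM with 0 counts in non-microglia. Its ligand Cd200 was lower in microglia (6.05 ± 4.26 CPM against 22.8 and 20.6 CPM, log2 change of -1.899 at edgeR adjusted p = 0.0139). That call ended without either non-microglia library (adjusted p = 0.0986 and 0.0704). Sirpa, the receptor for the signal CD47, was at 1167 ± 115 CPM against 137 and 124 CPM (log2 fold change 3.16 ± 0.13 SE, with edgeR adjusted p = 9.21e-12). Cd47 was at 119 ± 17.7 CPM against 176 and 172 CPM (log2 change of -0.55 at edgeR adjusted p = 0.00203). Cx3cl1, the ligand of Cx3cr1, overlapped between fractions and was not called (13.3 ± 10.1 CPM against 27.3 and 16.7 CPM, log2 change of -0.78 at edgeR adjusted p = 0.226).

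Trophic ligands of glia and neurons were mostly in non-microglia. Cntf was at 67.7 and 65.3 CPM against 3.21 ± 3.19 CPM (log2 fold change -4.49 ± 0.42 SE, with edgeR adjusted p = 1.53e-06), and 78.9% of its exon bases belong to another gene as well. Lif was at 7.11 and 9.15 CPM, with 3 reads in all 7 microglia libraries together. Their receptor relative Osmr was at 423 and 363 CPM against 0.395 to 41.5 CPM (log2 fold change -5.77 ± 0.84 SE, with edgeR adjusted p = 0.000519). The shared chain Il6st was higher in microglia by a small step, with groups that overlapped (175 ± 20.9 CPM against 150.5 and 105 CPM, log2 change of 0.45 at edgeR adjusted p = 0.0144). It was not called without non-microglia replicate 2 (adjusted p = 0.296) or with RLE size factors (0.07202). Bdnf was at 42.7 and 42.5 CPM against 0.60 ± 0.859 CPM (log2 fold change -6.24 ± 0.47 SE, with edgeR adjusted p = 1.27e-08). Its receptor Ntrk2 was at 54.9 and 77.4 CPM against 7.19 ± 6.85 CPM (log2 fold change -3.29 ± 0.61 SE, with edgeR adjusted p = 0.00126). The heparin-binding factors Ptn (log2 change of -5.59 at edgeR adjusted p = 8.24e-09) and Mdk (log2 change of -3.23 at edgeR adjusted p = 5.35e-05) and the receptor Igf1r (log2 change of -2.45 at edgeR adjusted p = 3.21e-06) were lower in microglia as well. Platelet-derived growth factors were higher in microglia. Pdgfb was at 36.6 ± 5.25 CPM against 0.569 and 0.98 CPM (log2 fold change 5.504 ± 0.36 SE, with edgeR adjusted p = 1.75e-09). Pdgfa was at 24.9 ± 5.96 CPM against 5.41 and 4.57 CPM (log2 fold change 2.29 ± 0.31 SE, with edgeR adjusted p = 8.75e-06). The receptor Pdgfra was lower in microglia (62.3 and 63.7 CPM against 4.12 ± 7.19 CPM, log2 fold change -3.95 ± 0.92 SE, with edgeR adjusted p = 0.00578). Vegfa, under the filter, was at 0.231 CPM in microglia and 1.14 and 1.96 CPM in non-microglia.

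**Figure D4:**
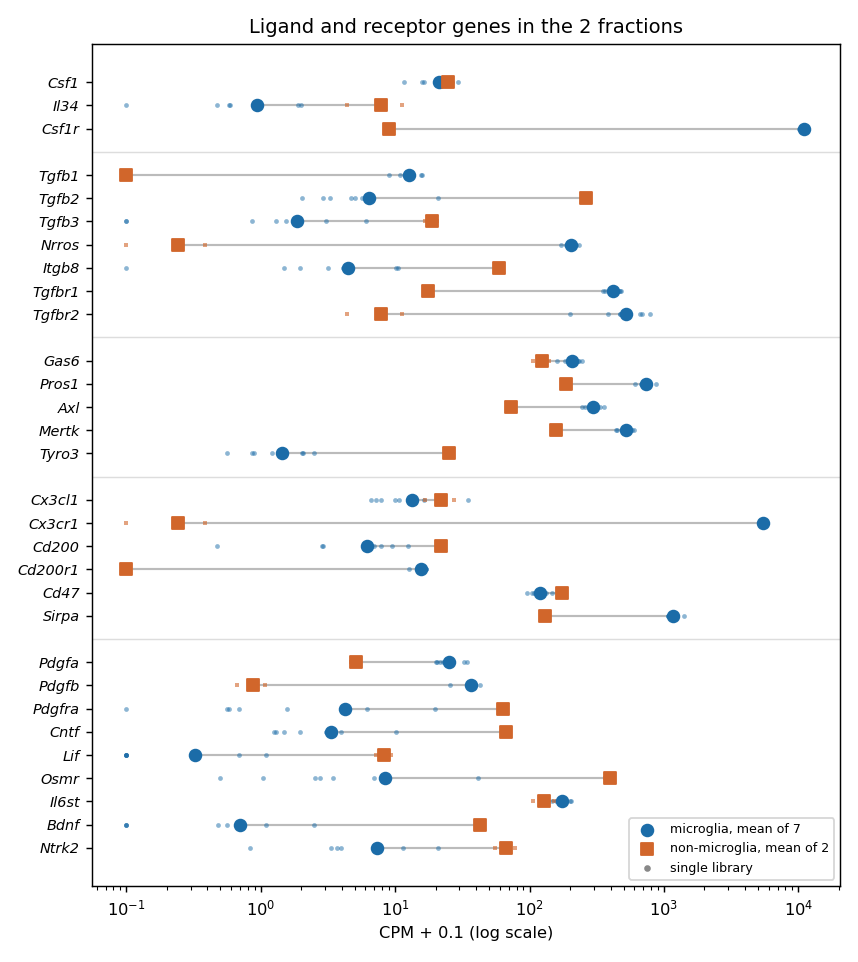
Ligand and receptor genes as CPM plus 0.1 on a log axis; large circles are means of 7 microglia libraries, large squares means of 2 non-microglia libraries, and small marks single libraries. Csf1r, Cx3cr1, Nrros and both TGF-beta receptor genes lie to the right in microglia, Tgfb2, Osmr, Bdnf and Cntf to the right in non-microglia, and the 2 means of Csf1 lie close together.

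Genes of cell division, immediate early genes and part of the interferon response were higher in microglia. Of 26 cell cycle genes, 22 were higher and 3 lower (median 3.04). Top2a, a topoisomerase of dividing cells, named like Mki67 after its values were seen, was at 44.4, 63.4, 66.8, 43.9, 60.4, 68.6 and 46.3 CPM with 0 counts in non-microglia (at least 61.4-fold higher). Mki67, a marker of dividing cells, ranged from 17 to 35.3 CPM with 2 reads in non-microglia. Mcm3, of the replication helicase, was at 138 ± 19.97 CPM against 5.97 and 3.59 CPM (log2 fold change 4.82 ± 0.24 SE, with edgeR adjusted p = 6.43e-11). Rrm1, a subunit of the enzyme that makes deoxynucleotides, was at 80.9 ± 14.5 CPM against 40.1 and 47.4 CPM (log2 change of 0.89 at edgeR adjusted p = 0.000424). Ccnd1, a cyclin of entry into division, was at 101 ± 12.3 CPM against 44.4 and 34.95 CPM (log2 change of 1.35 at edgeR adjusted p = 1.69e-06). The lower members were Ccnd2 (4.21 ± 1.85 CPM against 67.7 and 82.3 CPM, log2 change of -4.197 at edgeR adjusted p = 1.26e-09), a cyclin, and 2 inhibitors of the cycle. These were Cdkn1a (51.7 ± 10.9 CPM against 214 and 195 CPM, log2 change of -1.99 at edgeR adjusted p = 1.62e-08) and Cdkn1b (17.2 ± 5.14 CPM against 49.2 and 74.2 CPM, log2 change of -1.84 at edgeR adjusted p = 4.83e-06).

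Of 21 immediate early and heat shock genes, 15 were higher and 2 lower (median 2.005). Junb was at 1429.9 ± 140.5 CPM against 68.8 and 84.9 CPM (log2 fold change 4.22 ± 0.15 SE, with edgeR adjusted p = 1.52e-12). Egr1 was at 649 to 1031 CPM against 67.1 and 90.5 CPM (log2 fold change 3.48 ± 0.20 SE, with edgeR adjusted p = 2.33e-09). Jun was at 707 ± 151 CPM against 180.4 and 172 CPM (log2 fold change 2.005 ± 0.22 SE, with edgeR adjusted p = 1.09e-05). Btg2, an antiproliferative gene, was at 486 ± 49.6 CPM against 89.9 and 95.7 CPM (log2 change of 2.39 at edgeR adjusted p = 2.71e-10). The lower ones were the chaperone genes Hsp90aa1 (log2 change of -0.72 at edgeR adjusted p = 0.000329) and Hsph1 (log2 change of -0.76 at edgeR adjusted p = 0.00268). Both fractions went through the same dissociation, and the part of the sort in these levels was not tested.

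Of 18 interferon genes, 10 were higher and 2 lower (median 0.53). The receptor chain Ifnar2 was at 248 ± 18.9 CPM against 46.1 and 41.8 CPM (log2 fold change 2.498 ± 0.13 SE, with edgeR adjusted p = 9.36e-11). Its partner Ifnar1 was at 129 ± 10.2 CPM against 103 and 85.6 CPM (log2 change of 0.45 at edgeR adjusted p = 0.00365). Stat2, a factor they switch on, was higher by 0.71 on the log2 scale. The calls of Ifnar1 and Stat2 ended without non-microglia replicate 2 (adjusted p = 0.0919 and 0.117). The induced genes Oasl2 (log2 change of -2.29 at edgeR adjusted p = 1.28e-06) and Ifitm3 (log2 change of -1.14 at edgeR adjusted p = 0.00137) were lower. Named after their values were seen, Isg15 (4.61 ± 0.988 CPM against 2.56 and 4.25 CPM) and Ifit1 (4.11 ± 1.92 CPM against 2.85 and 3.92 CPM) were low in both fractions and not called.

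Genes of the retinal lists had counts in the microglia libraries, with the highest levels in replicates 2, 5 and 6. In bulk RNA, reads from other cells and low expression by microglia cannot be told apart. For each retinal list the members with at least 20 CPM in non-microglia were expressed as a percentage of their non-microglia level, and the median member was taken per library. Mueller glia genes stood at 0.932% to 5.78% (23 members), cone genes at 0.0829% to 6.69% (13), ON bipolar genes at 0.419% to 14.03% (18), synapse genes at 5.05% to 26.8% (17) and endothelial genes at 1.57% to 40.1% (10). Replicate 2 held the highest value in these 5 lists and in 8 of all 11 lists. Of the other 3, rod genes were highest in replicate 6 (5.39% against 3.21% in replicate 2), and pericyte and fibroblast genes (9.05% against 7.18%) and astrocyte genes (9.52% against 6.67%) in replicate 5. Without replicate 2 the ranges of the 5 lists were 0.932% to 4.27%, 0.0829% to 4.95%, 0.419% to 3.90%, 5.05% to 17.6% and 1.57% to 4.29%. Replicate 5 was next for Mueller glia, ON bipolar, synapse and endothelial genes, and replicate 6 for cone genes, with Opn1sw at 74.3 CPM against no more than 6.48 elsewhere. Replicate 8 was the lowest for Mueller glia, cone, ON bipolar and synapse genes. The mean microglial level of Trpm1 was 15.9 CPM over 7 libraries and 8.098 without replicate 2, that of Cldn5 4.53 and 0.843, and that of Osmr 8.297 and 2.77. Without replicate 2, 4606 genes were called higher and 4865 lower.

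**Figure D5:**
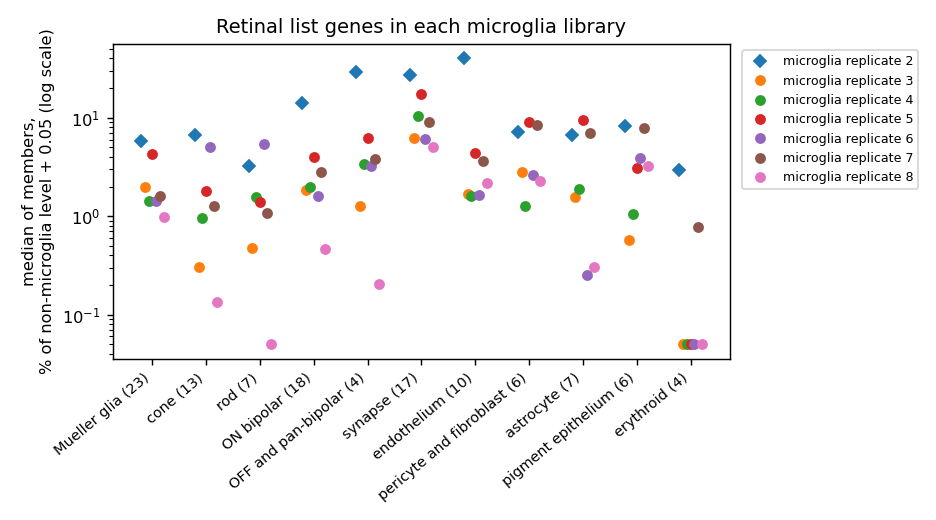
Median level of retinal list genes in each microglia library as a percentage of the non-microglia level, plus 0.05, on a log axis; the number of members per list stands in brackets and replicate 2 is drawn as a diamond. Replicate 2 is the highest library for ON bipolar genes at 14.03% and for endothelial genes at 40.1%, and replicate 8 the lowest for cone genes at 0.0829%.

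Microglial genes also had counts in the non-microglia libraries. Low levels there follow in part from the choice of genes, so the counts are a description. Of 87 genes on the microglial lists that were called higher and reached 20 CPM in microglia, 32 had 0 counts in both non-microglia libraries and 16 had 1 to 3 counts together, while 14 reached 20 CPM there. Cst3 and Ctsd, which many cell types express, were among these 14. Csf1r, at 8.82 and 8.82 CPM, stood at 58 counts over both libraries against 175258 over the 7 microglia libraries.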

How the data were processed

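The authors deposited 1 table of raw read counts per gene for the 18 libraries of the series, of which the 9 GFP libraries were used. Per the submitters' processing notes the tools were STAR, featureCounts and DESeq2 and the build GRCm38.p6, with versions not given in the sources used. Of 54532 gene identifiers, 54495 matched GENCODE release M21, which gave symbols, positions and exon lengths. Reads over exons shared by 2 genes cannot be assigned with certainty: in 859 tested genes this holds for 50% or more of the exon bases.

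Counts were tested with edgeR 4.0.16 (R 4.3.3; TMM factors, filterByExpr, robust quasi-likelihood F test, two-sided, Benjamini-Hochberg adjusted p under 0.05) on the 7 microglia and 2 non-microglia libraries. On simulated counts with the library sizes of this comparison (12306 genes) the test recovered 83% of 100 genes changed 2-fold and 100% of 100 changed 4-fold. Of its calls, 8.04% were false. There, all libraries had the microglial means and only those genes, none of low level, were changed. In the data 64.1% of tested genes were called, so these rates cannot be carried over to them. A floor of 3 counts was 0.853 to 1.78 CPM. Ribosomal RNA repeat genes took 8.34% to 11.3% of counts. Alternatives used limma 3.58.1 and DESeq2 1.42.0.

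The members and the 31 gene lists were chosen with earlier results of these data known, so lists are described by counts and medians, without a test. Genes were named by rule: the 4 markers, the 12 per direction with the smallest p, the 12 per fraction with the highest level per kilobase, up to 4 called members per list and those called against its majority, and all ligand and receptor genes. Some genes that these rules name are not reported here. Promoter examples followed the fold, and others were named after their values were seen and are marked so.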

Additional observations from a re-analysis of the deposited data

Results flagged for a closer look

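Of 155 sets of 7 microglia values looked at, 20 (12.9%) held a library far from the other 6 by Dixon's criterion at 95%. The sets share libraries, and in part genes, so they are not independent and this share is not set against chance. In 16 of the 20 that library was replicate 2. Its summed CPM stood apart as the highest for ON bipolar genes (349), amacrine genes (294), synapse genes (525), endothelial genes (362), erythroid genes (21.3) and photoreceptor transcription factors (105), and as the lowest for pattern receptors (3277.3). By gene it was the highest for the neuronal Snap25 (50.9 CPM), the glucose transporter Slc2a1 (59.2 CPM) and Bsg (438 CPM). It was the lowest for the microglial genes Csf1r (10131 CPM), C1qa (3463.8 CPM), C1qb (3141.7 CPM), Irf5 (493 CPM), Cd14 (537 CPM) and Pdgfb (25.5 CPM).

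Replicate 5 had the lowest Irf8 (253 CPM) and the highest C4b (190 CPM) of the microglia libraries. Replicate 6 had the highest summed level of cone genes (434 CPM), and replicate 3 the highest Sirpa (1399.3 CPM).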

How the results depend on the processing

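Only 2 non-microglia libraries limit the comparison, and it was run under 19 alternatives. A test against a 2-fold threshold called 2531 genes higher and 2987 lower. The other 18 kept both counts within 1.5 times those of the report, and in none of the 19 was a called gene called with the opposite sign. Leaving out 1 library gave 3859 to 4650 higher and 3790 to 4865 lower genes. RLE and upper quartile factors moved the median log2 fold change by -0.136 and -0.123, and DESeq2 by -0.136. Of 4308 values of 227 named genes, 4195 kept direction and call, 90 lost and 14 gained the call. The 9 that changed sign were all of C3, which was not called. Its log2 fold change was -0.0866 with RLE factors, -0.0745 with upper quartile factors, -0.0899 with DESeq2, -0.0933 with voom, -0.0298 without the filter, -0.00322 with all 18 libraries and -0.141 over microglia with Y chromosome counts. Leaving out 1 library gave -0.0651 to 0.186. The cause was not tested. No paired analysis was possible because the fractions share only the replicate number 2.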
